A study of Drosophila melanogaster with 3 samples.

Results

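The gooseberry-neuro (gsb-n) experiment gave 1056 promoter regions that recurred in all 3 replicates but were too weak for the reproducible peak list. They are peaks of a pooled list of 30000, made from the alignments of all replicates together. Each lies outside the list of 5746 peaks that passed a threshold on the irreproducible discovery rate (IDR), has a summit within 100 bp of a summit in every replicate's own list, and sits within 500 bp of a protein-coding transcription start site (TSS). The regions were thus chosen on measured values, namely the pooled signal behind the IDR list and the recurrence of the summit, and on their distance to a TSS. Of the 24254 pooled peaks outside the IDR list, 5312 (21.9%) recurred in this way, and 1056 of those were promoter peaks. Every region counted below is one of these weaker reproducible promoter peaks unless another set is named.

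The data are chromatin immunoprecipitation and sequencing of whole Drosophila melanogaster embryos, 4 to 14 hours old, in 1 group of 3 biological replicates. All embryos came from a transgenic line that stably expresses gsb-n with green fluorescent protein (GFP) at its C-terminus, and the tagged protein was recovered with an antibody against GFP. Chromatin was sonicated to 200 to 800 bp. The sources used here do not name the sequence that drives the transgene or the number of embryos per replicate, sex was not recorded, and without an untagged sample among those used no background could be measured. Each replicate list holds 30000 peaks, so recurrence in the lists does not by itself show enrichment over background. In whole embryos, few cells with strong binding and many cells with weak binding cannot be told apart. Without read counts in the lists, sequencing depth is unknown, and every interval below covers counting error over peaks only.

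Gsb-n is a Pax transcription factor of the embryonic nervous system, with a paired domain and a homeodomain that each contact DNA. Paired domains read cores such as GTCACG and GTTCC, and homeodomains read sites built on TAAT. Fly promoters fall broadly into a housekeeping class, which carries the DNA replication element (DRE, read by the factor Dref), the Motif 1 core (read by M1BP) or sites of the insulator protein BEAF-32, and a regulated class with TATA boxes, initiators and GAGA repeats, the sites of GAGA factor (Trl). Housekeeping promoters are often divergent, with a gene leaving in each direction.

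The sequences below show what these regions look like: for each of 6 short motifs, a region of high pooled signal that carries it, and another of high signal with none of the 6. Capitals mark the motif, letters follow the strand of the nearest gene, and stretches that touch an untranslated region are kept to 30 bases. Sequences are from the RefSeq copy of Drosophila genome release 6 (dm6).
CG14543, DRE, chr3R:26056623-26056652, plus strand: cgtctaaccgtTATCGATAtcacaaaagca
yrt, M1BP core, chr3R:13434985-13435090, minus strand: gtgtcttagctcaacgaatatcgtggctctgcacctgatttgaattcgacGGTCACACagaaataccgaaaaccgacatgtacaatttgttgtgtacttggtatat
CkIIbeta, E-box, chrX:11792626-11792655, plus strand: cctttaccggttCAGCTGcagtacaaaagt
Inx7, GAGA repeat read on the other strand, chrX:6993864-6994064, minus strand: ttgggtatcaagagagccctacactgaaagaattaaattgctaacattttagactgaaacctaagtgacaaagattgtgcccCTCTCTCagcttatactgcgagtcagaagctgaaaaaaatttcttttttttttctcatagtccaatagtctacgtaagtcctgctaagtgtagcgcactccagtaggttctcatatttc
HemK1, homeodomain core, chr2L:6467699-6467856, minus strand: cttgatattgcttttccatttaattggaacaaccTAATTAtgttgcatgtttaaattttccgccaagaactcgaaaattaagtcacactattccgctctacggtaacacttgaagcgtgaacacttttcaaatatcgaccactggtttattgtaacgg
HemK1, paired core GTCACG, chr2L:6467671-6467700, minus strand: ggtcgagaaacgGTCACGctggaacgaact
kat80, none of the 6, chrX:16276014-16276115, minus strand: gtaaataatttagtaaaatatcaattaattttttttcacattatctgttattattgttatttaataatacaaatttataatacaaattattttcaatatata

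The summit at yrt, which encodes a membrane-cytoskeleton protein of epithelial polarity, lies 6 bp upstream of the TSS and ranked 8128, 5830 and 10675 in replicates 1, 2 and 3. The one at Inx7, a gap junction protein gene, lies 352 bp upstream and ranked 5902, 5622 and 13492. That at CkIIbeta, the regulatory subunit of casein kinase 2, lies 74 bp upstream and ranked 7001, 7487 and 5474. Ranks count down from 1, the highest signal of a replicate list of 30000 peaks. Ranks are used because the signal column of each list is on its own scale.

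In each replicate the regions lay in the upper part of the list but mostly below its top. Their median rank was 11622, 10719 and 10722 in replicates 1, 2 and 3 (mean 11021 ± 520, SD, n = 3), and single ranks ran from 1323 to 29934. Only 85, 93 and 171 of them were among a replicate's own top 5746 peaks, and 748 (70.8%) reached that level in no replicate. In 269 cases (25.5%) 1 replicate reached it, in 37 cases 2, and in 2 cases all 3. For comparison, the 1773 IDR promoter peaks with a summit in all 3 replicates had median ranks of 2383, 2686 and 2365. This contrast in rank restates how the regions were chosen.

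**Figure D1:**
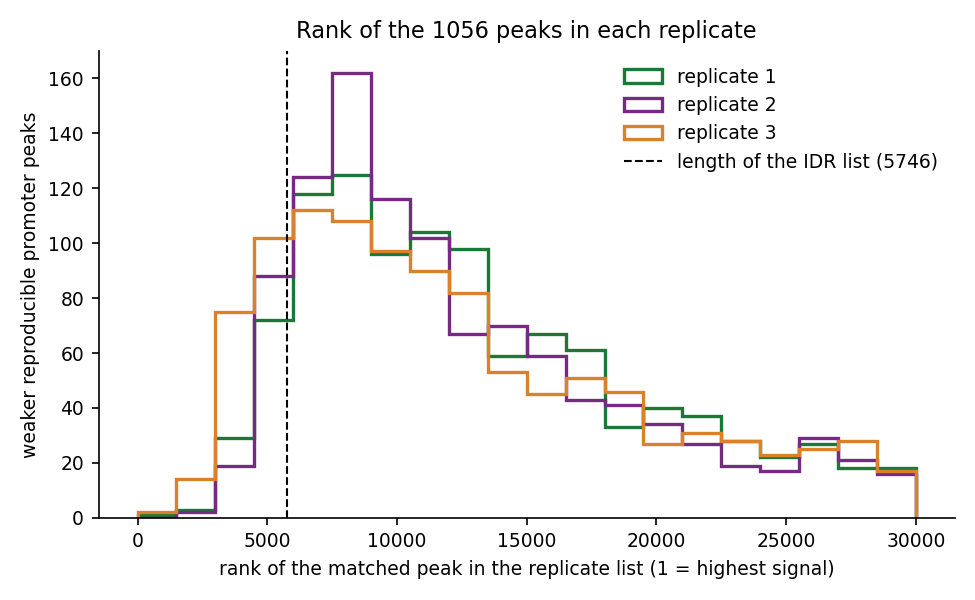
Distribution of the 1056 weaker reproducible promoter peaks over the rank of their matched peak (x axis, 1 is the highest signal) in each of the 3 replicate lists (coloured lines, y axis: number of peaks per bin). The dashed line is the length of the IDR list, 5746; 85, 93 and 171 peaks lie left of it in replicates 1, 2 and 3, and replicate 3 has the most.

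Every replicate recovered these regions, as the rule required, but each ordered them differently. Spearman's rank correlation across the 1056 regions was 0.126 for replicates 1 and 2, 0.190 for 1 and 3, and 0.191 for 2 and 3, values that describe regions confined to a narrow range of pooled signal and come from libraries that share a control. The ratio of a region's highest to its lowest rank had a median of 2.12 and reached 16.6, with 193 regions (18.3%) at 1.5 or less and 51 (4.83%) above 5. The lowest rank number of a region fell in replicate 1 in 306 cases, in replicate 2 in 340 and in replicate 3 in 410. Median distances between the pooled and the replicate summit were 17, 23 and 28 bp.

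The strongest regions sit just under the lowest IDR peak: their highest pooled signal was 158.085 on the authors' scale, against 158.172 for the weakest peak of the IDR list. At bs (blistered, the fly serum response factor), 221 bp upstream of the TSS, the matched peaks ranked 12819, 6066 and 3521. At HemK1, 58 bp upstream, they ranked 19300, 4840 and 3413, so replicate 1 was far below the other replicates at both genes. At kat80, the regulatory subunit of the microtubule-severing enzyme katanin, 66 bp downstream, the ranks were 6019, 6770 and 6759, which differ little. The remaining 9 of the 12 strongest regions lay at CG14543, Nadk1a (an NAD kinase), CG34244, Fili, CG4119, Ptp4E (a receptor tyrosine phosphatase), Asph, CG13917 and CG7120.

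Recurrence in 3 lists reached far down the signal scale. The pooled signal of the regions ran from 45.4 to 158 with a median of 113, their pooled rank from 5750 to 26166 with a median of 9028, and their deposited −log10 q from 0.312 to 3.36 with a median of 2.03. The weakest region, in a coding exon of CG14147 and 312 bp downstream of its TSS, ranked 24473, 28777 and 23750. The next weakest lay at Stlk, CG13510 and CG6231, and the best rank of these 4 regions in any replicate was 15277. Near the edges of the rule, 95 regions had their farthest replicate summit 91 to 100 bp away, and 94 promoter peaks missed by 1 to 10 bp. Likewise 46 regions lay in the outermost 50 bp allowed around a TSS, and 48 otherwise eligible peaks in the next 50 bp.

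Some regions flank stronger peaks. A summit of the IDR list lay within 500 bp of 81 regions (7.67%), never closer than 199 bp and at a median of 204 bp, whereas over all regions the nearest IDR summit was a median of 4162 bp away. For 25 of the 81, the replicate peak matched to the region was, in at least 1 replicate, also the replicate peak nearest to the IDR summit (6, 6 and 16 cases in replicates 1, 2 and 3), and for 0 of them in all 3. Of the 51 regions with a rank ratio above 5, 13 were among the 81. The rank ratio had a median of 2.76 within these 81 and 2.08 among the other 975.

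The least even regions were found at 4 genes. At CG8188, whose TSS is 24 bp from the summit, the ranks were 1497, 24912 and 22292, so only replicate 1 placed it high, and an IDR summit lay 205 bp away. At Toll-6, a neuronal Toll receptor, they were 11074, 15703 and 1323, and at CG18661 they were 7296, 14649 and 1382, with IDR summits about as near. At Doa, a protein kinase of splicing regulators, the ranks were 12919, 27986 and 2739, with the nearest IDR summit 7745 bp away. The regions of lowest mean rank were ArgRS-m (a mitochondrial arginyl-tRNA synthetase; 2856, 3495 and 3856), Polr3E (an RNA polymerase III subunit; 7644, 3690 and 3120), solo (sister chromatid cohesion in meiosis; 5718, 4983 and 4513) and Tomosyn (an inhibitor of synaptic vesicle fusion; 5807, 5051 and 4519). The first pair of these had IDR summits 216 and 206 bp away.

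Summits gathered at the TSS itself. The signed distance to the nearest TSS had a median of −63.5 bp (negative is upstream), with quartiles at −204 and 23.0 bp, and the densest 50 bp stretch was the one just upstream of the TSS, with 15.2% of summits. The other non-IDR promoter peaks were densest in the same stretch (10.2%), and IDR promoter peaks 100 to 150 bp upstream (16.8%). The unsigned distance had a median of 116 bp at pooled summits and of 119, 118 and 112 bp at the summits of replicates 1, 2 and 3. A summit within 100 bp of the TSS was found in 45.2% of regions, against 40.1% of 2031 IDR promoter peaks and 36.1% of 3232 other non-IDR promoter peaks, which lacked a summit in at least 1 replicate. The differences were 5.04 percentage points (95% Newcombe interval 1.37 to 8.72) and 9.03 points (5.62 to 12.5).

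**Figure D2:**
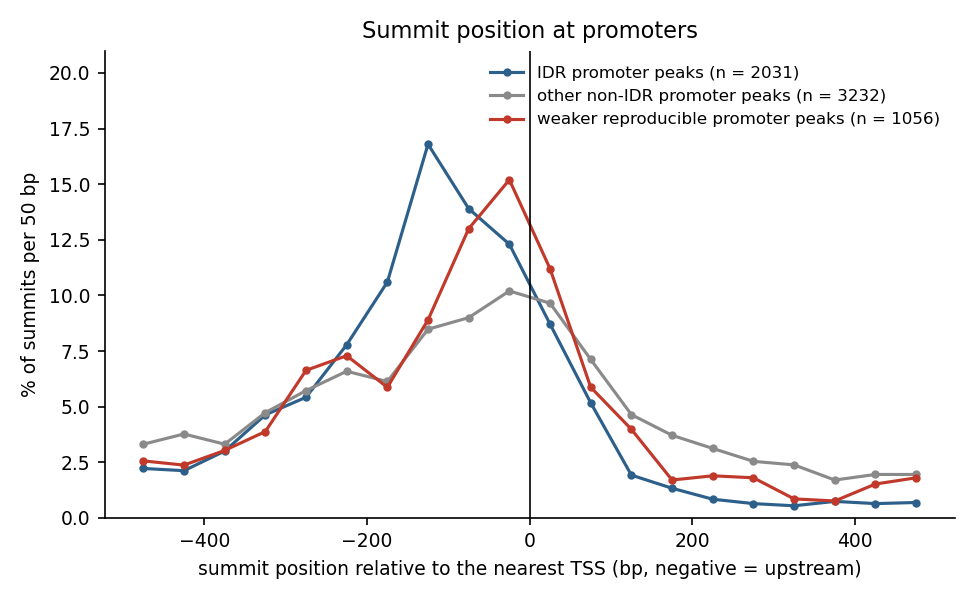
Position of summits relative to the nearest protein-coding TSS (x axis in bp, negative is upstream, points at the centres of 50 bp bins) for 3 sets of promoter peaks, as a percentage of each set (y axis). The weaker reproducible and the other non-IDR promoter peaks are densest in the bin just upstream of the TSS (15.2% and 10.2%). The IDR promoter peaks are densest 100 to 150 bp upstream (16.8%).

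More summits lay upstream of the TSS than downstream, in 725 of 1056 regions (68.7%, 95% Wilson interval 65.8 to 71.4). The share was lower than among IDR promoter peaks (78.8%) by 10.1 points (difference −10.1, −13.5 to −6.84), and higher than among the other non-IDR promoter peaks (61.2%) by 7.42 points (4.11 to 10.6). Measured from gene 5′ ends alone, with no other start sites, the second difference was 3.07 points and its interval included 0. By annotation, 43.3% of summits lay outside protein-coding genes, 27.7% in 5′ UTRs, 26.6% in introns, 1.52% in 3′ UTRs and 0.947% in coding exons. Among IDR promoter peaks 20.5% of summits lay in 5′ UTRs and 53.3% outside protein-coding genes. Among other non-IDR promoter peaks these shares were 29.5% and 36.9%.

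The regions lay at divergent promoters less often than IDR promoter peaks. A promoter was called divergent when the TSS of another gene on the opposite strand lay within 500 bp upstream. This held for 150 regions (14.2%, 12.2 to 16.4) and for 27.4% of IDR promoter peaks, a difference of −13.2 points (−16.0 to −10.3). Examples are CG14543 with Sld5, CG4119 with Sirt4, kat80 with the proteasome gene Prosalpha4, and mRpL21 with rept. The other non-IDR promoter peaks had 11.0%, which is 3.16 points fewer (0.884 to 5.62). That smaller difference was not kept when both sets were held to pooled ranks up to 10000 (−1.29 points, −5.69 to 3.00), a comparison chosen after seeing the data, and the pooled signal of the full sets differed (median 113 against 64.1). Without replicate 1 it was 1.32 points, with an interval that included 0.

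The X chromosome held 232 regions (22.0%), a feature chosen after its values were seen. IDR promoter peaks lay there in 15.1% of cases (difference 6.85 points, 3.96 to 9.85) and other non-IDR promoter peaks in 19.2% (2.79 points, 0.0171 to 5.70). Counted by genes, 10.1% of 2196 X-linked protein-coding genes had a region, against 5.91% to 7.48% on the large autosomal arms and 9 of 80 genes (11.2%) on chromosome 4. The share of X-linked genes with an IDR promoter peak was 12.5%, within the 12.3% to 14.2% of the large autosomal arms.

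Sequence around the summits was compared as the share of windows, reaching 100 bp to either side of the summit, that hold a motif on either strand. All 16 motifs were set against 4 sets of windows, 64 differences with no adjustment, and a difference was called when its 95% Newcombe interval left out 0. Of the 64, 25 were called, among them 6 against IDR promoter peaks and 4 against other non-IDR promoter peaks. The rest were 6 against weaker reproducible peaks away from promoters and 9 against windows at gene 5′ ends. For promoters in general, windows centred on the TSS nearest each region were also used. They were set against a window at the 5′ end of each of the 13945 protein-coding genes, which makes 80 differences. The TSS nearest a region could be an internal start site of a gene, a kind that the gene windows leave out. With gene 5′ ends as the only start sites, 810 regions remained. The DRE (TATCGATA) was in 74 windows (7.01%, 5.62 to 8.71), the M1BP core (GGTCACAC) in 69 (6.53%, 5.20 to 8.19) and the BEAF-32 core (CGATA, which lies within the DRE) in 346 (32.8%). In windows centred on the TSS the shares were 8.24%, 7.95% and 37.8%, and among all genes 7.84%, 6.76% and 39.4%. These differences were 0.401 points (−1.18 to 2.27) for the DRE, 1.20 points (−0.345 to 3.03) for the M1BP core and −1.59 points (−4.58 to 1.48) for the BEAF-32 core, and none was called. IDR promoter peaks had 6.79% DRE and 5.66% M1BP core, and the intervals of both differences included 0 (−1.61 to 2.19 and −0.855 to 2.77 points).

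Among non-IDR promoter peaks, those recurring in every replicate carried more of these motifs than those that did not. The DRE was 3.11 points more frequent (1.54 to 4.92; 3.90% in the others), the M1BP core 3.38 points (1.89 to 5.12; 3.16%), the BEAF-32 core 3.46 points (0.274 to 6.74; 29.3%) and the motif 7 core (CANCNCTA) 2.37 points (0.427 to 4.52; 10.1% against 7.77%). These were the 4 of 16 motifs called in that comparison, all higher. Of 19 alternative settings, the interval included 0 in 11 for the BEAF-32 core (differences of 0.58 to 7.04 points) and in 9 for the motif 7 core (1.14 to 4.05 points). At replicate summits the DRE share was 6.82%, 6.16% and 6.34% in the regions (mean 6.44 ± 0.341, SD, n = 3). It was 3.60%, 4.39% and 4.44% in those of the other peaks that were matched in that replicate. The M1BP core gave 6.16%, 6.53% and 7.20% against 3.26%, 3.29% and 4.09%. Each replicate's windows cover the same regions with the summit shifted, so the spread of these values describes that shift only. GTCACG was not called (1.34 points, −0.0587 to 2.98). At replicate summits, over the same shifted windows, it gave 5.21%, 5.11% and 5.21% against 4.40%, 3.58% and 4.44%. With both sets held to pooled ranks up to 10000, the DRE difference was 3.15 points (0.0103 to 6.21) and that of the M1BP core 0.574 points (−2.29 to 3.31). The weaker reproducible peaks away from promoters, 4256 in number, held the DRE in 0.423% and the M1BP core in 0.470% of windows.

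**Figure D3:**
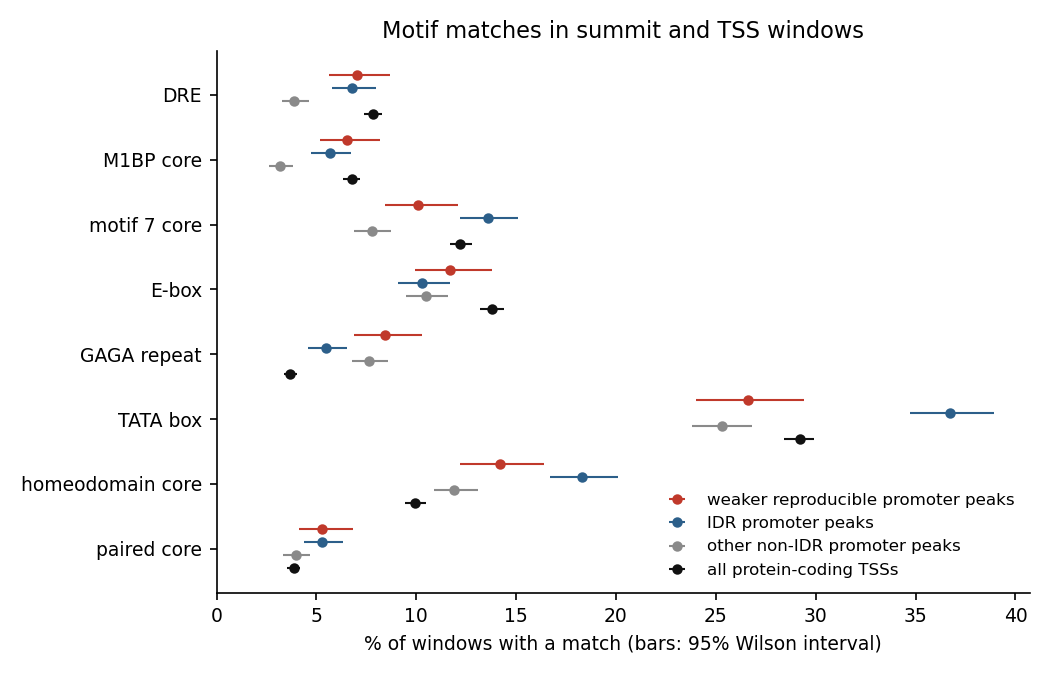
Share of windows, reaching 100 bp to either side, with a motif match (x axis, %) for 8 motifs (rows) in 3 sets of promoter peaks, centred on summits, and in windows centred on the 5′ end of all 13945 protein-coding genes (points, with 95% Wilson intervals). DRE and M1BP core shares of the weaker reproducible promoter peaks (7.01% and 6.53%) lie above those of the other non-IDR promoter peaks (3.90% and 3.16%), and the GAGA repeat is at 8.43% against 5.47% of IDR promoter peaks.

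Of the 16 motifs, GAGA repeats (GAGAGAG) had the largest excess over the 5′ ends of all genes. In windows centred on the TSS they were in 8.90% of regions and 3.69% of all genes (5.22 points higher, 3.61 to 7.11). Around the summits they were in 89 windows (8.43%, 6.90 to 10.3), against 5.47% of IDR promoter peaks (2.96 points, 1.09 to 5.01) and 7.64% of other non-IDR promoter peaks (0.786 points, −1.02 to 2.81). At replicate summits, again over the same regions with the summit shifted, the share was 7.39%, 8.90% and 9.00%. Among IDR promoter peaks it was 5.36%, 6.40% and 5.49%. With windows centred on the nearest TSS in place of the summit, the difference from IDR promoter peaks was 0.285 points, and with windows reaching 150 bp to either side 1.74 points, and both intervals included 0.

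Sites of the homeodomain kind were less frequent around the summits than in IDR promoter peaks, though not under every setting. The core TAATTA was in 150 windows (14.2%, 12.2 to 16.4), against 18.3% of IDR promoter peaks (difference −4.11 points, −6.75 to −1.35). In windows centred on the TSS it was in 7.58%, against 9.95% of all genes (−2.37 points, −3.90 to −0.550). Summit windows held it more often than the windows of all genes, by 4.26 points (2.22 to 6.55), but these are centred on unlike positions. The other non-IDR promoter peaks had 11.9%, a difference of 2.26 points whose interval included 0 (−0.0316 to 4.74). At replicate summits the core was in 14.0%, 14.6% and 14.9% of regions and in 19.3%, 18% and 17.8% of IDR promoter peaks. The difference from IDR peaks turned to 1.29 points (−2.67 to 5.73) when replicate matches were limited to the top 15000 peaks of each list. It was −1.57 points (−4.78 to 1.92) for regions of pooled rank up to 10000. With windows reaching 150 bp to either side it was −3.07 points (−6.12 to 0.0850), and with windows at the nearest TSS −1.98 points (−3.96 to 0.151). The homeodomain dimer with a 3 bp spacer was in 1.89% of windows against 3.35% (difference −1.45, −2.55 to −0.223), and that with a 2 bp spacer in 2.18% against 3.05% (−1.98 to 0.384).

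Paired-domain cores were not called against either set of promoter peaks in summit windows. GTCACG was in 5.30% of windows (4.11 to 6.82), 5.27% of IDR promoter peaks (difference 0.0347 points, −1.56 to 1.80) and 3.96% of other non-IDR promoter peaks (1.34 points, −0.0587 to 2.98). Centred on the TSS, 6.34% of regions and 3.86% of all genes held it (2.49 points higher, 1.13 to 4.15). GTTCC was in 18.5%, against 20.1% and 20.7%, with intervals of −4.48 to 1.35 and −4.91 to 0.542 points. Against other non-IDR promoter peaks, GTCACG was called higher in 4 of 19 alternative settings (differences of 0.266 to 2.54 points) and GTTCC lower in 5 (−5.77 to −0.204 points). Against IDR promoter peaks GTTCC was called lower in 1 of 19 and GTCACG in none of the 19.

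The TATA box motif (TATAAA) gave the largest called difference from IDR promoter peaks: 26.6% against 36.7% (−10.1 points, −13.5 to −6.68). A match was taken at any place in the window and on either strand, so it need not be a working TATA box. The share in other non-IDR promoter peaks was 25.3%. With windows centred on the nearest TSS the difference from IDR promoter peaks was 1.03 points in the other direction. In those windows 21% of regions held TATAAA, against 29.2% of all genes (−8.14 points, −10.6 to −5.47). Mean GC content of the windows moved with these AT-rich motifs, at 40.0% in the regions, 36.3% in IDR promoter peaks and 41.0% in other non-IDR promoter peaks, and its part in the result was not tested. The TCT core (CTTTTC) was called 3.24 points higher than in IDR promoter peaks (0.398 to 6.20) and motif 7 core 3.46 points lower (difference −3.46, −5.75 to −1.03), which completes the 6 of 16 motifs called in that comparison. For the TCT core the interval included 0 in 9 of 19 alternative settings, in 1 of them with the sign changed (−2.54 to 4.31 points), and for the motif 7 core in 4 of 19 (−4.91 to −0.791 points). The E-box (CAGCTG), initiator core (TCAGT), Zelda motif (CAGGTAG) and A tract (AAAAAAA), at 11.7%, 32.7%, 0.758% and 21.7%, were not called against either set of promoter peaks.

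Each motif had its own place relative to the TSS. DRE matches lay at a median of −33.5 bp from the TSS (quartiles −61.5 and −12.5 bp), and M1BP cores at −8.00 bp (−53.2 and 12 bp). GAGA repeats lay farther upstream, at a median of −105 bp (−179 and −3.50 bp), and TAATTA farthest and most spread, at −122 bp (−282 and 58.5 bp). The M1BP core read along the strand of the gene in 56 of 74 matches, as it does in the yrt sequence printed above. GAGA repeats had 111 matches on the gene's strand and 112 on the other. Overlapping matches were each counted, so these 223 came from 89 windows, and long repeats weigh more in their position and strand. The 74 M1BP matches came from 69 windows. Matches were taken only within 100 bp of a summit, which limits where they could fall.

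**Figure D4:**
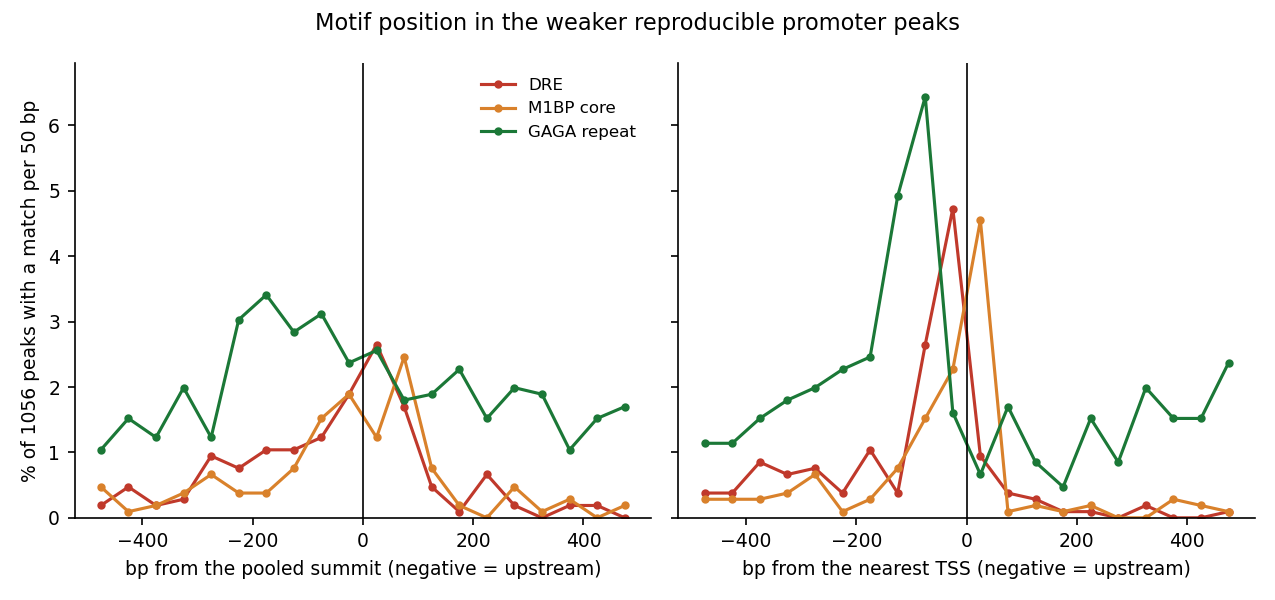
Percentage of the 1056 weaker reproducible promoter peaks with a DRE, M1BP core or GAGA repeat match in each 50 bp bin (y axis), by distance from the pooled summit (left) and from the nearest TSS (right), negative being upstream along the gene. Around the TSS the DRE is most frequent in the 50 bp upstream (4.73%), the M1BP core in the 50 bp downstream (4.55%) and the GAGA repeat 50 to 100 bp upstream (6.44%).

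The housekeeping motifs and the GAGA repeat rarely shared a window. A DRE or M1BP core was in 137 windows (13%) and a GAGA repeat in 89 (8.43%), and 1 window held both kinds. Both kinds were uncommon, and their overlap in other promoter sets was not measured. The low overlap is thus not read as a trait of these regions. Leaving that window aside, 43 of 136 DRE or M1BP regions (31.6%) were at divergent promoters, against 3 of 88 GAGA regions (3.41%), a difference of 28.2 points (18.7 to 36.7). A summit within 100 bp of the TSS was found in 80.1% and 38.6% of them, a difference of 41.5 points (28.7 to 52.7), with median distances of 57.0 and 146 bp. Shares upstream were 72.1% and 69.3%, with an interval of −9.09 to 15.1 points. Mean GC content was 37.7% with a DRE or M1BP core and 48.0% with a GAGA repeat, and its part in these differences was not tested. Median pooled signal was close, at 117 and 116. A further 127 regions held TAATTA without these motifs, and 704 (66.7%) held none of the 4.

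Within the regions, divergent promoters and upstream summits had lower shares at lower pooled signal, a value that the rule also used. Split into 4 equal groups of 264 from strongest to weakest, divergent promoters made up 18.6%, 14.0%, 14.0% and 10.2%, and upstream summits 75.8%, 68.2%, 67.0% and 63.6%. TAATTA was in 16.3%, 18.2%, 13.6% and 8.71%, and the DRE in 6.44%, 11.4%, 6.44% and 3.79%. GAGA repeats stayed between 7.58% and 9.85%, the M1BP core between 5.68% and 7.58%, and TATAAA between 26.1% and 27.7%. Groups next to each other had overlapping 95% Wilson intervals for each of these features. The intervals of the strongest and the weakest group were apart for upstream summits (70.2 to 80.5% and 57.7 to 69.2%), and those of the second strongest and the weakest group for TAATTA (14.0 to 23.3% and 5.88 to 12.7%) and the DRE (8.08 to 15.8% and 2.07 to 6.83%).

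**Figure D5:**
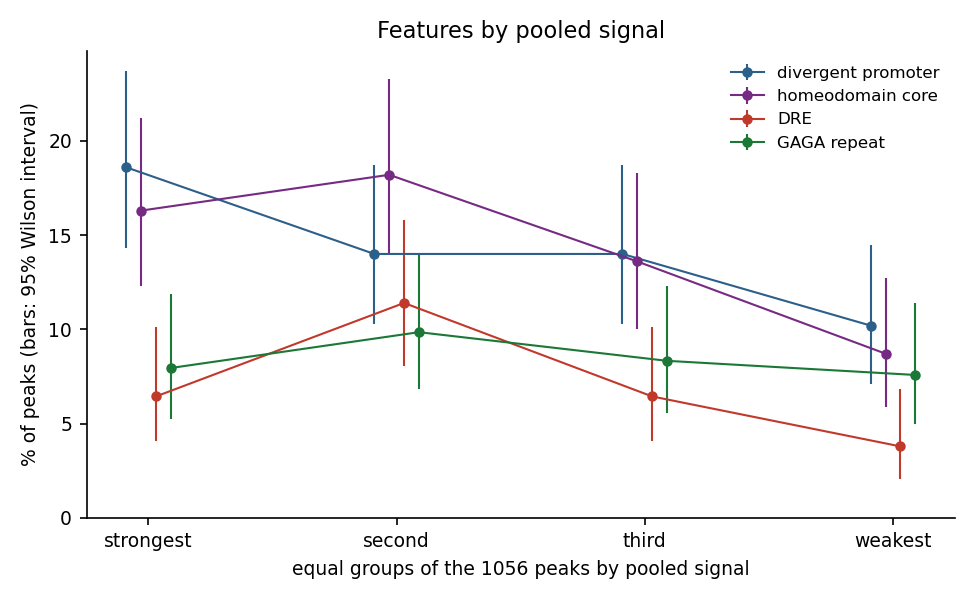
Share of regions (y axis, %, with 95% Wilson intervals) that lie at a divergent promoter or hold a homeodomain core (TAATTA), DRE or GAGA repeat, in 4 equal groups of the 1056 regions by pooled signal (x axis). Divergent promoters go from 18.6% in the strongest group to 10.2% in the weakest, with overlapping intervals, and the GAGA repeat stays between 7.58% and 9.85%.

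The regions belonged to 995 protein-coding genes by nearest TSS, 7.14% of 13945, which is the share to hold each gene list against. Of these genes 194 also had an IDR promoter peak, which is 19.5% of the 995 and 10.5% of the 1846 genes with an IDR promoter peak. Of all protein-coding genes 13.2% had one. For 17 regions the nearest TSS belonged to more than 1 gene. Several lists of developmental genes had shares above that background, on few genes each. The lists named next also had IDR promoter peaks at 39.1% to 45.0% of their genes, above the 13.2% of all genes. Shares were not adjusted for the number of start sites per gene. Axon guidance genes had a region in 6 of 25 cases (24.0%, 95% Wilson interval 11.5 to 43.4), among them trio, NetB (a netrin) and ena (an actin regulator). Neural precursor genes had it in 5 of 23 (21.7%, 9.66 to 41.9), including ase, mira and insc, of which the last pair act in asymmetric division. Neuronal identity factors had it in 5 of 24 (20.8%, 9.24 to 40.5; jing, fru and ap). Pax and paired-like genes had it in 4 of 23 (17.4%, 6.98 to 37.1; al, ey and hbn) and segment polarity genes in 3 of 20 (15%, 5.24 to 36.0; inv, en and arm), and both of these intervals include 7.14%.

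Chromatin and insulator factors had the highest share, 9 of 33 (27.3%, 95% Wilson interval 15.1 to 44.2). At psq, a GAGA-binding factor, the summit 48 bp upstream of the TSS ranked 4430, 6355 and 6196. At mod(mdg4), an insulator cofactor, it ranked 9109, 4909 and 8722, and the window held a DRE. At BEAF-32 itself the summit, 40 bp upstream of 1 TSS and within a 5′ UTR, ranked 6127, 6046 and 15035, and its window held the BEAF-32 core. Replicate 3 was the lowest there. Of the 33 genes 16 had an IDR promoter peak, 5 of them together with a weaker region.

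Genes that pattern the embryo had single regions. At lab, the anterior Hox gene, the summit 80 bp upstream ranked 14217, 6304 and 6829, and its window held GTCACG. At en (engrailed) the summit 151 bp upstream ranked 5051, 6405 and 28383, so replicate 3 recovered it only near the bottom of its list. At its paralogue inv the ranks were 8818, 5391 and 7545. At ey, a Pax6 gene of the eye, they were 16444, 7013 and 22986. Hox genes had a region in 1 of 8 cases, pair-rule genes in 2 of 10 (run and odd) and Notch pathway genes in 2 of 21 (mib1 and Ser). No weaker region was assigned to gsb, gsb-n, prd or wg; of these gsb, gsb-n and wg each had 1 IDR promoter peak and prd had 0.

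Lists of widely expressed genes lay on both sides of the background. Cytoplasmic ribosomal protein genes had a region in 5 of 93 cases (5.38%), while 59 of them (63.4%) had an IDR promoter peak. Among the 5, RpL27A (ranks 19160, 8176 and 3106) and RpS5a (3737, 13019 and 16340) lay 203 and 204 bp from an IDR summit, and RpL15 (6361, 7439 and 12452) lay 4319109 bp from one. Mitochondrial ribosomal protein genes had 3 of 73, translation factors 4 of 53, aminoacyl-tRNA synthetases 1 of 32, proteasome subunits 3 of 48 and RNA polymerase subunits or TBP-associated factors 3 of 45. Respiratory chain genes had 9 of 82 (11.0%, 5.88 to 19.6), spliceosomal and Sm protein genes 4 of 36, vacuolar ATPase subunits 3 of 33 and cell cycle genes 4 of 33 (Dp, Cdk2 and CycA among them). Synaptic genes had 1 of 23 (Syx1A) and cuticle protein genes of the Cpr family 1 of 70.

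Odorant and gustatory receptor genes, expressed in sensory neurons of later stages, had a region in 0 of 119 cases, which allows a share of up to 2.52%, and Mediator subunit genes in 0 of 29, which allows up to 10.3%. The proteasome gene Rpt2 ranked 6616, 19582 and 3269, and Prosalpha5, with a DRE, 5885, 17340 and 5614, so replicate 2 was the lowest at both. The respiratory chain gene UQCR-14, also with a DRE, ranked 28177, 6905 and 4975. Cdk2 and CycA windows held a DRE as well, at ranks of 12638, 10108 and 4365 and of 19846, 7702 and 5311. The ratios of highest to lowest rank at these 5 genes were 5.99, 3.09, 5.66, 2.90 and 3.74. Over all regions the median was 2.12 and the upper quartile 3.00. Other named regions were more even, such as Prosbeta7 of the proteasome (1.85), and mRpL32 and SmE (1.31 each), both with a DRE.

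Most genes had a single region: 943 had 1, 43 had 2 and 9 had 3. The 9 were cnc (a stress response and head patterning factor), sdt (epithelial polarity), nuf (recycling endosomes), mtd, CG6231, C3G (a Rap exchange factor), ps (an RNA-binding splicing regulator), Tlk (tousled-like kinase) and capu (an actin nucleator). Their 3 regions fell at different TSSs of the gene. At ps the regions lay 32 bp downstream, 83 bp upstream and 297 bp upstream of their nearest TSSs and ranked 9302, 7858 and 8471, then 27666, 5054 and 7432, then 17940, 9018 and 25819. Both upstream windows held a GAGA repeat. At C3G a region 13 bp upstream of a TSS divergent with pod1 held a DRE and ranked 10350, 8350 and 6227, while the other 2 held none.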

How the data were processed

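The authors deposited 5 peak lists on dm6: 1 of 30000 peaks per replicate, a pooled list of 30000, and 5746 peaks kept by IDR. Replicate and pooled lists were made from alignments and a shared control, and the IDR list from these lists, per the deposited notes. The sources used here do not name the aligner, peak caller or IDR threshold. The signal column of the deposited lists is peak height on the authors' scale, set per list, and served to rank peaks inside each list. Deposited −log10 q values describe peaks; the p column holds no p-values. Summits are the start plus the deposited offset and lay at the peak midpoint in 99.8% of the regions and 71.4% of IDR promoter peaks. Deposited signal tracks were not analysed here.

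TSSs (19607 positions) came from Ensembl release 115, for the large chromosome arms and chromosome 4, and bases from RefSeq's genome release 6. Shares have 95% Wilson intervals and differences Newcombe intervals (Python 3.11.15, numpy 2.4.6, pandas 2.3.3, scipy 1.17.1). With 1 group no test over samples exists, and no p-value is given. Matching, motif search and intervals were tested on simulated data. Named regions are the 12 strongest, the 4 weakest, the 4 of lowest mean rank and the 4 of largest rank ratio, genes with 3 regions, up to 3 regions per list by signal, 5 genes named whatever their values, and the motif examples. The regions, the 16 motifs and 23 gene lists were chosen with earlier results of these data known; 2 listed names matched no gene. Alternatives varied the match distance, the TSS distance and set, the windows, and the replicates and peaks included.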

Additional observations from a re-analysis of the deposited data

How the results depend on the processing

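The 14 results that answer a comparison were recomputed under up to 19 alternatives each, of which 2 were chosen after seeing the data. The share of regions upstream of the TSS, the share at divergent promoters and both differences from IDR promoter peaks kept their direction under every alternative run, and of 207 recomputed values 168 stayed within the limits set for them. A match within 50 bp gave 486 regions at 474 genes, a median TSS distance of 106 bp and a divergent difference from other non-IDR promoter peaks of 2.45 points, whose interval included 0. A match within 200 bp gave 1821 regions at 1585 genes, 65.0% upstream and a median of 121 bp. A TSS within 250 bp gave 18.5% divergent and a median of 77.0 bp, and within 1000 bp 64.3% upstream and 223 bp. Gene 5′ ends alone gave 64.1% upstream, 18.9% divergent and an upstream difference from other non-IDR peaks of 3.07 points.

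Leaving out each replicate in turn, so that a summit was needed only in the other lists, gave 1510 to 1671 regions at 1372 to 1500 genes, 65.4% to 68.1% upstream, a median of 111 to 136 bp and a divergent difference from other non-IDR promoter peaks of 1.32 to 4.44 points. Limiting matches to the top 15000 peaks of each list left 408 regions at 400 genes with a median of 104 bp, and the homeodomain core difference from IDR promoter peaks changed sign to 1.29 points. Windows reaching 150 bp to either side gave 1.74 points for the GAGA repeat and −3.07 for the homeodomain core against IDR promoter peaks. Windows at the nearest TSS gave 0.285 points for the GAGA repeat, −1.98 for the homeodomain core, 1.03 for the TATA box and −2.54 for the TCT core, the last pair with changed sign. Pooled ranks up to 10000 left 639 regions at 622 genes with a median of 110 bp, a divergent difference from other non-IDR peaks of −1.29 points (changed sign), 0.574 points for the M1BP core and −1.57 for the homeodomain core. The cause of these changes was not tested. No paired analysis was possible because the study has 1 group. Read depth is unknown, peaks of neighbouring genes are not independent, and the pooled list contains the reads of each replicate.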
